A study of Mus musculus with 16 samples.

Results

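Interferon beta (Ifnb1) and 8 interferon regulatory factors (IRFs), Irf1, Irf2, Irf3, Irf4, Irf5, Irf7, Irf8 and Irf9, were followed across GM-CSF and M-CSF differentiated macrophages. They were chosen by gene symbol and make up 9 of the 22287 genes in the count table. RNA-seq was performed on 16 libraries of bone marrow derived macrophages (BMDMs) from C57BL/6J mice aged 8 weeks, differentiated for 7 days with GM-CSF (GM) or M-CSF (M). The cells grew on tissue culture treated dishes (TC), whose surface promotes adhesion, or on untreated dishes (noTC), and were left at steady state or exposed to lipopolysaccharide (LPS) for 3 h. This gave 8 groups of 2 libraries, named GM or M by growth factor and TC or noTC by dish, with LPS added to the name of the challenged ones. The labels name no transgene or deletion and no sort of the cells, and in such bulk libraries fewer cells of a type and less RNA per cell could not be told apart. The labels do not say that replicates came from separate mice, and p-values then measure the spread between these libraries only.

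Type I interferon is made when a receptor such as TLR4, the receptor of LPS, activates the kinase TBK1, which phosphorylates IRF3, the factor that with NF-kappaB turns on Ifnb1. Secreted interferon beta signals through its receptor to a complex of STAT proteins and IRF9 that turns on the interferon stimulated genes, among them Irf7, which then amplifies the interferon response. IRF4, IRF5 and IRF8 are immune cell factors, IRF1 is an activator induced by interferons and NF-kappaB, and IRF2 is known as its antagonist at many promoters.

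Total counts lay between 17527802 and 31458363 per library, and 3 counts, taken as the floor, corresponded to between 0.0954 and 0.171 CPM (counts scaled to a common library total), which covers counting error only. All 7 macrophage markers were detected in every group, with summed levels of 19984 to 46561 CPM scaled by TMM factors (TMM CPM). B cell markers summed to at most 1.14 TMM CPM and T and NK cell markers to at most 0.0739 TMM CPM. The TC libraries at steady state held heart muscle transcripts, with a sum of 19.6 to 54.1 TMM CPM over 6 genes against at most 0.291 TMM CPM in the other groups. Some genes were under 1 CPM in the TC libraries but of 100 CPM or more on average in 10 other libraries. Their median excess in the noTC steady state libraries was 0.675% of that average in GM cells (15 genes, 0.390 to 0.907%) and 0.600% in M cells (19 genes, 0.00840 to 0.845%). Where this excess came from was not tested. Results of these groups are given with this share subtracted where that changed the call, and in some other places.

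All 9 genes passed the expression filter, among 12514 genes tested. Between LPS and steady state, 80.9 to 85.8% of these genes had groups of 2 libraries that did not overlap. Between growth factors the share was 77.7 to 83.5%, and between dishes 45.2 to 66.9%. Ifnb1 passed the expression filter only through the LPS groups and so had to differ upon LPS challenge. Without Ifnb1 the counts of members that passed below are 7 of 8 in GM cells and 8 of 8 in M cells on each dish. At the threshold of an adjusted p under 0.05 in edgeR's quasi-likelihood test, LPS changed nearly every one of the genes, but in different directions and by very different amounts. Ifnb1, Irf1 and Irf7 rose most, Irf2 and Irf9 rose by a lesser amount, and Irf3 fell in M cells. In GM-TC cells 8 of the 9 passed, beside 67.0% of all genes tested, with 8 higher and 0 lower (32.8% and 34.2% of all genes). On noTC dishes 8 GM genes passed beside 67.7%, again 8 higher and 0 lower (33.6% and 34.0% of all genes). In M-TC cells 9 passed beside 74.0%, 7 higher and 2 lower (37.6% and 36.4% of all genes), and in M-noTC cells 9 beside 72.3%, 7 higher and 2 lower (36.4% and 35.9% of all genes). The median log2 fold changes of the 9 genes were 1.25 and 1.17 in GM cells on TC and noTC and 1.44 and 2.05 in M cells, while those of all genes tested were -0.05, -0.03, -0.01 and -0.01. With scaling by library size only, the median over all genes shifted to -0.53, -0.54, -0.83 and -0.73, and the members then split into 6 higher and 2 lower (TC) or 6 and 3 (noTC) in GM cells, and 6 and 2 (TC) or 7 and 2 (noTC) in M cells. Over all genes the split of higher to lower changed from 4103 and 4282 to 2149 and 7841 in GM-TC, from 4205 and 4261 to 2053 and 7983 on noTC, from 4709 and 4549 to 2040 and 8648 in M-TC, and from 4551 and 4496 to 2012 and 8572 on noTC. Under that scaling Irf3 and Irf4 had log2 fold changes of -0.44 and -0.17 in GM-TC and -0.49 and -0.30 in GM-noTC, and Irf5 had -0.04 and -0.13, while Irf3 in M cells had -1.14 on TC and -1.05 on noTC.

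**Figure D1:**
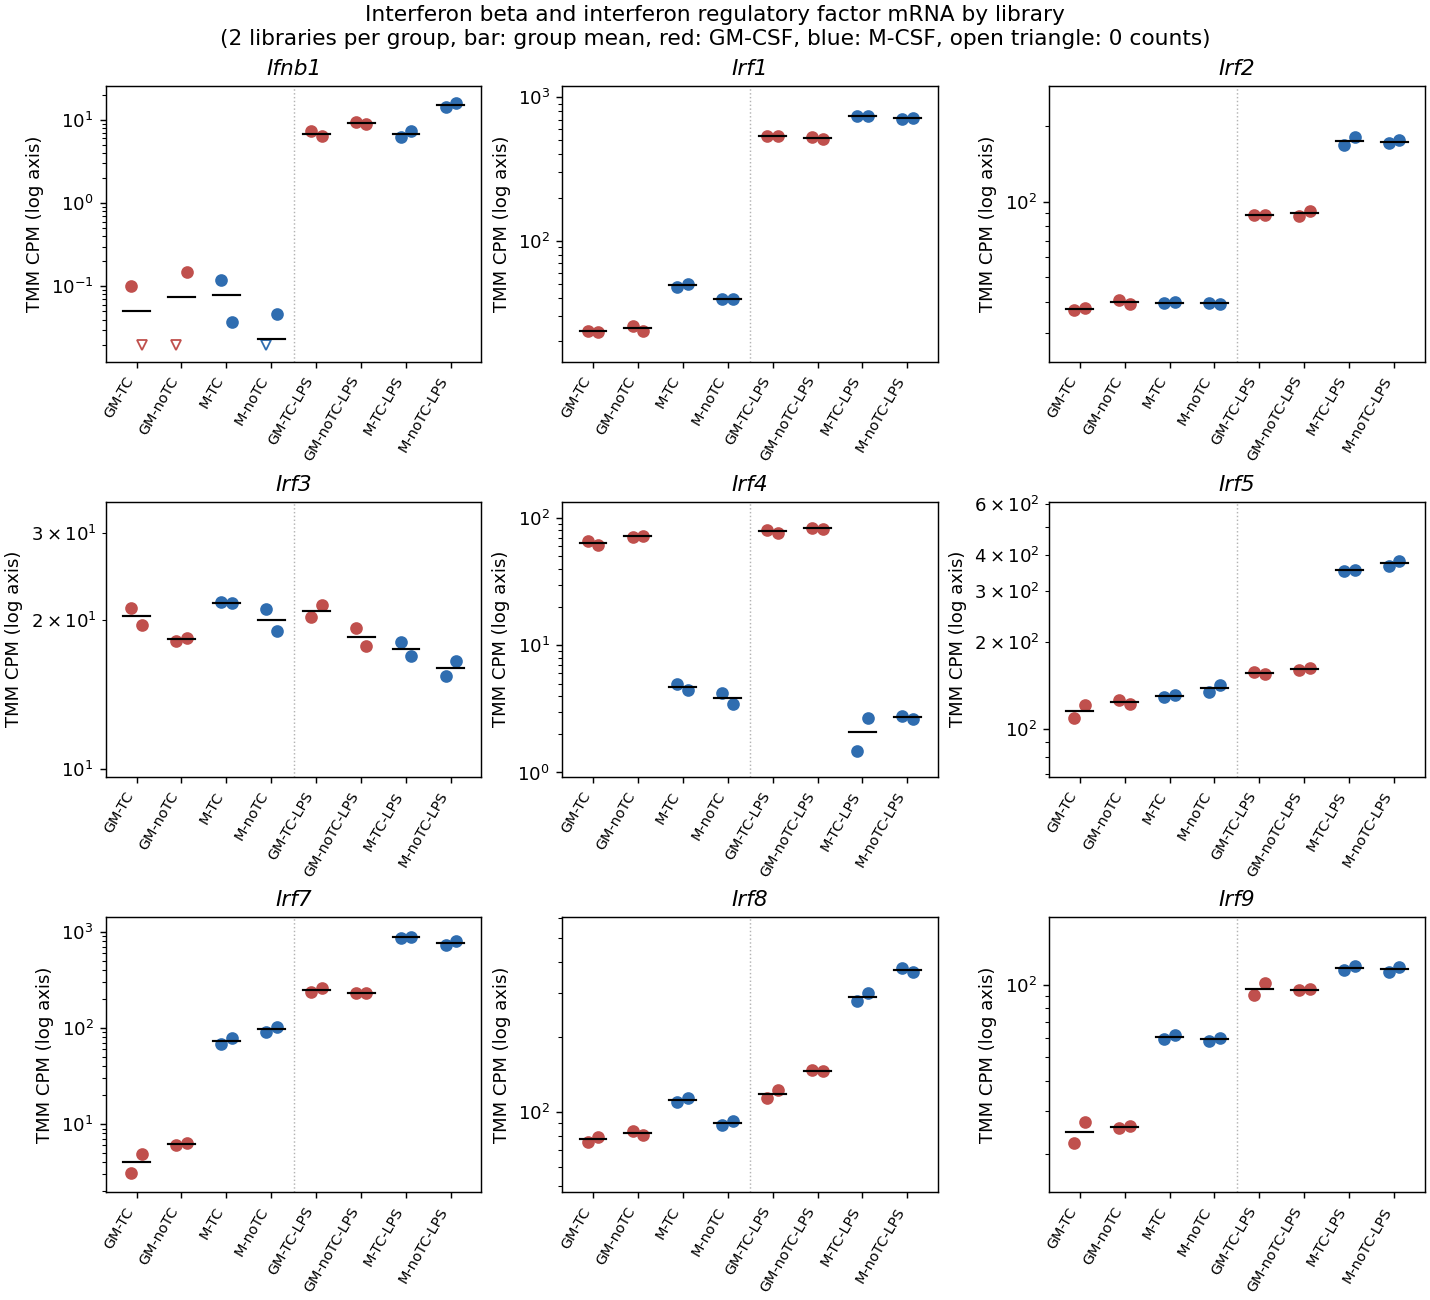
TMM CPM of the 9 genes in each of the 16 libraries, on log axes that differ between panels, with the group mean as a bar and the LPS groups to the right of the dotted line. Ifnb1 had 0 to 4 counts in the 8 steady state libraries, and Irf4 separated GM from M libraries in every state.

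**Figure D2:**
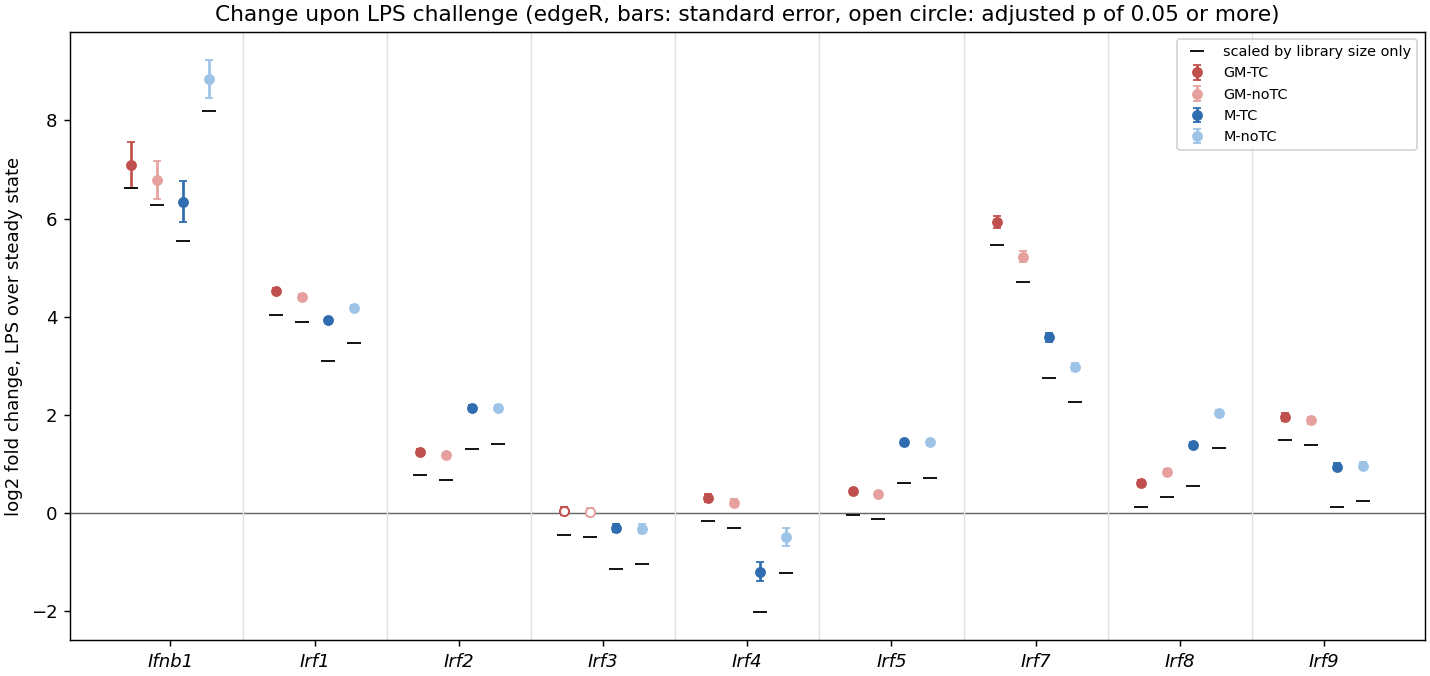
log2 fold changes upon LPS challenge with standard errors for 4 macrophage cultures, with open circles where the adjusted p was 0.05 or more and black dashes for scaling by library size only. Irf1 and Irf7 rose in all 4 cultures under both scalings, and Irf3, Irf4 and Irf5 in GM cells lay near 0 and changed sign with the scaling.

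Ifnb1 (ENSMUSG00000048806), the gene of the cytokine itself, lies without an intron at chr4:88522025-88522774 on the minus strand (GRCm38). At steady state it had 2 and 0 counts in the TC and 0 and 4 in the noTC libraries of GM cells, and 3 and 1 (TC) and 0 and 2 (noTC) in those of M cells. Upon LPS challenge GM cells had 140 and 137 counts on TC and 197 and 194 on noTC, and M cells 125 and 125 on TC and 280 and 316 on noTC. No LPS library overlapped with a steady state library, and 7 of the 8 steady state libraries lay at or under the floor of 3 counts.

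With such low counts at steady state, the size of the rise was known only roughly. From the summed counts and effective library sizes, the ratio of LPS to steady state was 151 (95% exact counting interval 41.5 to 1255) on TC and 117 (45.4 to 432) on noTC for GM cells, and 86.3 (33.3 to 319) on TC and 548 (151 to 4539) on noTC for M cells. Neither the difference of these responses between growth factors (adjusted p = 0.69 on TC and 0.23 on noTC from edgeR) nor that between dishes (adjusted p = 0.97 in GM and 0.26 in M) passed.

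Among the LPS groups, M-noTC-LPS stood out for Ifnb1. Its level was 6.80 ± 0.620 TMM CPM (SD, n = 2) in GM-TC-LPS, 9.09 ± 0.341 in GM-noTC-LPS, 6.71 ± 0.786 in M-TC-LPS and 15.1 ± 0.984 in M-noTC-LPS. Both M-noTC-LPS libraries, at 14.4 and 15.8 TMM CPM, were above every other library. M-noTC-LPS cells had 2.25 times the level of M-TC-LPS cells (log2 fold change 1.17, standard error 0.18, adjusted p = 6.3e-05 from edgeR), and the log2 fold change stayed between 1.05 and 1.29 when each library was left out in turn. In GM cells the same comparison gave a log2 fold change of 0.42 (standard error 0.19, adjusted p = 0.32 from edgeR). The libraries of 6.36 and 7.24 against 8.85 and 9.33 TMM CPM did not overlap, as for 45.3% of all genes tested. The difference between the dish effects of M and GM cells was 0.75 on the log2 scale and did not pass (adjusted p = 0.073 from edgeR). It passed with scaling by library size (adjusted p = 0.040), without the expression filter (adjusted p = 0.017) and in a fit of the LPS libraries alone (adjusted p = 0.0088). It did not pass with DESeq2, with DESeq2's size factors or with a replicate block, and was 0.63 to 0.87 when each library was left out in turn.

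The promoters were read from RefSeq (GRCm38.p6) to show where matches to the patterns of known response elements lie in the 9 genes. Windows of 250 bases before the annotated start were searched on both strands for 4 patterns, where N is any base. The core of the interferon stimulated response element (ISRE), which reads GAAA, then any 2 bases, then GAAA, was found in 2.98% of 32851 mouse promoters, and the shorter IRF pattern AANNGAAA, which overlaps with it, in 21.3%. The NF-kappaB pattern, which reads GGGA, then any 4 bases, then CC, was found in 17.6% and the gamma activated sequence TTCNNNGAA, an element of interferon responsive promoters, in 7.02%. All 9 genes had at least 1 window, 12 in all, and 5 windows held a match. The share of all promoters with at least 1 of the 4 patterns was not counted. Whether 5 of 12 is more than usual can therefore not be told, and a match does not show that a factor binds there. Matched letters are in capitals. In Ifnb1 (chr4:88522868-88522963, minus strand) 3 matches of AANNGAAA stood beside 2 of the NF-kappaB pattern. The known interferon beta enhancer lies in this region, and whether each match is a part of it was not tested.
Ifnb1: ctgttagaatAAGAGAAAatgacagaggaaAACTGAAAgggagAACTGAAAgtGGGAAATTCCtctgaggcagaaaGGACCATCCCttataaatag
The stretch of Irf1 (chr11:53769914-53770013, plus strand) held 1 match of TTCNNNGAA and 1 of the NF-kappaB pattern.
Irf1: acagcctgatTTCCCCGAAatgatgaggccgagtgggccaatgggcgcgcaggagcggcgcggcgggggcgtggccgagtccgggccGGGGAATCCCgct
In Irf2 (chr8:46739495-46739539, plus strand) the capitals mark 1 match of the ISRE core that overlaps with 2 of AANNGAAA, and 1 of TTCNNNGAA.
Irf2: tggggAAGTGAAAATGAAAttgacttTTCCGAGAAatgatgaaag
In Irf8 (chr8:120736177-120736319, plus strand) they mark 2 TTCNNNGAA matches and 1 of the NF-kappaB pattern.
Irf8: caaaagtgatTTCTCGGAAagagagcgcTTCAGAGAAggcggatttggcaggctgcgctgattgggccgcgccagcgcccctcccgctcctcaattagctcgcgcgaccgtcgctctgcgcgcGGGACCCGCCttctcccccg
In Irf4 (chr13:30749041-30749070, plus strand) there was a single NF-kappaB match, and the windows of Irf3, Irf5, Irf7 and Irf9 held none of these letters.
Irf4: tgtctgaagtGGGACAGCCCttgacccggt

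Ifnb1 was the one interferon gene that passed the expression filter. Of 20 other interferon genes in the table, 0 passed the expression filter and 10 had a count in any library. The highest count of any of them in a library was 7, for Ifna9, an alpha interferon whose reads can be shared with its close relatives. Ifnz had 13 counts, spread over 10 libraries, and Ifng 3, all in 1 library. The 5 markers of plasmacytoid dendritic cells, the main source of alpha interferon, summed to 25.2 to 30.7 TMM CPM in resting and 105 to 119 in LPS libraries of GM cells, and to 74.7 to 114 and 272 to 357 in those of M cells. Their defining Siglech had no count in GM-noTC and GM-TC-LPS cells and Ly6d none in 6 of the groups, and the part of these cells in the member levels was not tested.

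Irf3 and Irf7 are the factors that drive interferon genes, and their levels behaved differently. Irf3 (ENSMUSG00000003184, chr7:44997648-45002848) ranged from 15.4 to 21.7 TMM CPM, and from 12.96 to 30.2 CPM by library size, over all 16 libraries. In GM cells it had 21.2 and 19.6 on TC and 18.2 and 18.4 on noTC at rest, and 20.3 and 21.5 on TC and 19.3 and 17.7 on noTC with LPS. M cells had 21.7 and 21.7 on TC and 21.03 and 19.05 on noTC at rest, and 18.1 and 16.9 on TC and 15.4 and 16.6 on noTC with LPS. It fell by 0.31 on the log2 scale in M-TC cells (standard error 0.087, adjusted p = 0.0029 from edgeR) and by 0.32 in M-noTC cells (standard error 0.085, adjusted p = 0.0020). The libraries with and without LPS did not overlap in either, as for 85.8% and 85.7% of all genes tested. Scaled by library size, Irf3 fell by 1.14 and 1.05 in these cells. In GM cells its log2 fold changes were 0.04 (standard error 0.086) and 0.02 (standard error 0.086), with adjusted p = 0.70 and 0.88 from edgeR.

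Irf7 (ENSMUSG00000025498, chr7:141262706-141266481, minus strand) was the IRF that differed most widely between groups. At steady state it had 3.13 and 4.91 TMM CPM on TC and 6.07 and 6.36 on noTC dishes in GM cells, against 68.6 and 78.8 on TC and 90.9 and 103 on noTC dishes in M cells. Upon LPS challenge it had 239 and 264 on TC and 234 and 232 on noTC dishes in GM cells, against 866 and 894 on TC and 729 and 804 on noTC dishes in M cells. Every M library was above every GM library of the same state, and every LPS library was above every steady state library. LPS raised it 61.1-fold in GM-TC (log2 fold change 5.93, standard error 0.12, adjusted p = 4.1e-21 from edgeR) and 37.4-fold in GM-noTC (5.22, standard error 0.11, adjusted p = 9.6e-21), where the log2 fold change was 5.85 with the share of the other libraries subtracted. In M cells it rose 11.9-fold on TC (3.58, standard error 0.086, adjusted p = 5.7e-20) and 7.88-fold on noTC (2.98, standard error 0.083, adjusted p = 8.7e-19). GM cells, with the larger folds, had lower levels than M cells both before and after LPS.

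Within a library the ratio of Irf7 to Irf3 per kilobase of transcript does not depend on scaling between libraries. GM cells had a ratio of 0.157 and 0.266 on TC and 0.354 and 0.366 on noTC, and M cells of 3.35 and 3.85 on TC and 4.58 and 5.75 on noTC. Upon LPS challenge it was 12.5 to 13.8 in the 4 GM libraries and 50.1 to 56.0 in the 4 M libraries. Irf7 mRNA was the rarer of the pair in resting GM cells and the more abundant in every other group.

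Irf1 and Irf2, an activator and its antagonist, both rose, with Irf1 moving much further. Irf1 (ENSMUSG00000018899, chr11:53770014-53778374) had 23.6 and 23.0 TMM CPM on TC and 25.6 and 23.6 on noTC dishes in GM cells, against 47.8 and 49.7 on TC and 39.3 and 39.3 on noTC dishes in M cells. With LPS it had 535 and 535 on TC and 525 and 514 on noTC dishes in GM cells, against 746 and 739 on TC and 708 and 718 on noTC dishes in M cells. The steady state and LPS libraries were far apart, and GM and M libraries did not overlap in either state. The log2 fold changes were 4.52 and 4.40 in GM cells on TC and noTC, and 3.93 and 4.18 in M cells (standard errors 0.054 to 0.058, adjusted p = 3.7e-24 or lower from edgeR). M cells had more Irf1 than GM cells at steady state, by log2 fold changes of 1.07 on TC (adjusted p = 4.9e-13 from edgeR) and 0.68 on noTC (adjusted p = 7.5e-10).

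Irf2 (ENSMUSG00000031627, chr8:46739732-46847458) was level at steady state and separated by growth factor upon LPS challenge. Its 8 steady state libraries lay between 36.9 and 40.5 TMM CPM. Upon LPS challenge it reached 87.6 to 92.1 in the 4 GM libraries and 169 to 181 in the 4 M libraries, without overlap. It rose 2.38-fold in GM-TC and 2.25-fold in GM-noTC (log2 fold changes 1.25 and 1.17, adjusted p = 2.0e-14 and 4.2e-14 from edgeR), and 4.40-fold in both M cultures (log2 2.14, adjusted p = 3.7e-19 on TC and 2.9e-19 on noTC). The difference of the response between M and GM was 0.89 on TC (standard error 0.082, adjusted p = 1.0e-08 from edgeR) and 0.97 on noTC (standard error 0.080, adjusted p = 2.3e-09).

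Irf5 (ENSMUSG00000029771, chr6:29526625-29541871), a factor of inflammatory cytokine genes that acts downstream of toll-like receptors, was the most abundant IRF per kilobase at steady state in all 4 cultures. It had 109 and 122 TMM CPM on TC and 126 and 122 on noTC dishes in GM cells, against 129 and 132 on TC and 134 and 142 on noTC dishes in M cells. With LPS it had 158 and 155 on TC and 160 and 162 on noTC dishes in GM cells, against 350 and 356 on TC and 367 and 381 on noTC dishes in M cells. The M-LPS libraries stood more than 1 doubling above all GM-LPS libraries. It rose 2.71-fold in both M cultures (log2 fold change 1.44, adjusted p = 2.4e-16 on TC and 2.2e-16 on noTC from edgeR). In GM cells the log2 fold changes were 0.44 on TC and 0.38 on noTC (adjusted p = 4.5e-07 and 3.2e-06 from edgeR) and turned to -0.04 and -0.13 with scaling by library size.

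Irf4 (ENSMUSG00000021356, chr13:30749226-30766976) and Irf8 (ENSMUSG00000041515, chr8:120736358-120756694) are close relatives that bind DNA together with the lineage factor PU.1, and IRF8 is required for many monocyte and dendritic cell lineages. Irf4 marked GM cells. Resting GM cells had 65.7 and 61.4 TMM CPM on TC and 71.3 and 72.7 on noTC, and 80.2 and 76.8 on TC and 84.1 and 81.8 on noTC with LPS. Resting M cells had 4.95 and 4.42 on TC and 4.25 and 3.48 on noTC, and 1.48 and 2.67 on TC and 2.77 and 2.64 on noTC with LPS. The GM and M libraries did not overlap, and the log2 fold change of M over GM was -3.76 on TC, -4.24 on noTC, -5.27 on TC with LPS and -4.93 on noTC with LPS (adjusted p = 1.9e-18 or lower from edgeR). LPS lowered it in M cells to 0.435 of the steady state level on TC (adjusted p = 7.6e-06 from edgeR) and to 0.711 on noTC (adjusted p = 0.016), the latter lost when either M-noTC-LPS library or the first M-noTC library was left out (adjusted p up to 0.12). In GM cells its log2 fold changes of 0.31 on TC (adjusted p = 0.0012 from edgeR) and 0.20 on noTC (adjusted p = 0.018) turned negative with scaling by library size, and that on noTC was lost without the first GM-noTC or the first GM-noTC-LPS library (adjusted p = 0.062 and 0.089).

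The difference in Irf4 between growth factors ran beside that of dendritic cell markers. The 6 markers of conventional dendritic cells summed to 47.5 to 104 TMM CPM in GM libraries and 0.917 to 4.44 TMM CPM in M libraries, and all 6 had counts in each group. The 7 neutrophil markers summed to 7.78 to 28.6 TMM CPM in GM libraries and 0.299 to 1.59 in M libraries, where Ly6g, Elane and Mpo had no count. The 4 markers of mast cells and basophils summed to 18.1 to 32.6 TMM CPM in GM and 3.25 to 8.22 in M libraries. The part of other cell types in the Irf4 level was not tested.

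Irf8 was present in both kinds of macrophage and rose further in M cells. It had 75.7 and 78.9 TMM CPM on TC and 83.9 and 80.1 on noTC dishes in GM cells, against 109 and 113 on TC and 88.0 and 91.9 on noTC dishes in M cells. With LPS it had 113 and 123 on TC and 147 and 146 on noTC dishes in GM cells, against 279 and 301 on TC and 379 and 363 on noTC dishes in M cells. The noTC libraries were above the TC libraries in both LPS comparisons, and below them in M cells at steady state. LPS raised it 1.53-fold on TC and 1.78-fold on noTC in GM cells, and 2.61-fold and 4.13-fold in M cells (adjusted p = 5.9e-09 or lower from edgeR). These are log2 fold changes of 0.61, 0.83, 1.38 and 2.05. With scaling by library size they were 0.13 (adjusted p = 0.045 from edgeR), 0.33, 0.55 and 1.32. Per kilobase, the ratio of Irf8 to Irf4 within a library was 1.84 to 2.15 in the 4 GM steady state libraries, 2.37 to 2.98 in the 4 GM-LPS libraries, 34.7 to 44.1 in the 4 M steady state libraries and 188 to 316 in the 4 M-LPS libraries.

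Irf9 (ENSMUSG00000002325, chr14:55603571-55610030), the DNA-binding partner of STAT2, was higher in M cells at rest and nearly equal upon LPS challenge. It had 22.2 and 27.1 TMM CPM on TC and 25.6 and 25.9 on noTC dishes in GM cells, against 59.7 and 61.9 on TC and 58.6 and 60.3 on noTC dishes in M cells. With LPS it had 90.6 and 102 on TC and 94.9 and 95.5 on noTC dishes in GM cells, against 115 and 119 on TC and 113 and 119 on noTC dishes in M cells. M libraries were above GM libraries in both states, but the distance was smaller with LPS. It rose 3.88-fold on TC and 3.70-fold on noTC in GM cells (adjusted p = 8.6e-16 and 1.1e-15 from edgeR), and 1.92-fold and 1.94-fold in M cells (adjusted p = 5.4e-11 and 3.1e-11). In M-TC cells the rise did not pass with scaling by library size (log2 fold change 0.11, adjusted p = 0.12 from edgeR). The annotation (GENCODE M21) places 123 bases of its exons within Rnf31 on the same strand, and 135 exon bases of Irf1, 411 of Irf5, 88 of Irf3 and 45 of Irf7 on the opposite strand of a neighbour, and reads there could not be told apart in unstranded libraries.

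The second comparison was of M with GM cells at equal dish and state. Irf7, Irf9 and Irf1 were higher and Irf4 lower in M cells throughout, while Irf2 and Irf5 separated mainly upon LPS challenge. At steady state 6 of the 9 genes passed on TC beside 61.5% of all genes tested, 5 higher and 1 lower (28.9% and 32.6% of all genes), and 6 on noTC beside 62.1%, 5 higher and 1 lower (30.7% and 31.4%). Upon LPS challenge 8 passed on TC beside 66.8%, 6 higher and 2 lower (32.9% and 33.9%), and 9 on noTC beside 66.1%, 7 higher and 2 lower (32.6% and 33.5%). The median log2 fold changes of the 9 genes were 0.52, 0.13, 0.47 and 0.73, beside -0.02, 0.00, -0.03 and -0.02 over all genes, in the order TC, noTC, TC with LPS and noTC with LPS. With scaling by library size the medians over all genes at steady state were 0.29 on both dishes, and 7 genes were higher and 1 lower on each dish, with Irf2 (0.40 on TC and 0.28 on noTC) and Irf3 (0.41 and 0.42) added. Over all genes the split of higher to lower then moved from 3619 and 4078 to 6363 and 2458 on TC and from 3837 and 3928 to 6525 and 2469 on noTC.

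Irf7 had 17.9 times the level in M cells on TC (log2 fold change 4.16, standard error 0.13, adjusted p = 9.0e-18 from edgeR) and 15.6 times on noTC (3.97, standard error 0.11, adjusted p = 2.6e-18), where the log2 fold change was 4.57 with the share of the other libraries subtracted. Irf9 had 2.45 times the level on TC and 2.31 times on noTC (adjusted p = 2.6e-12 and 4.3e-12 from edgeR). Upon LPS challenge the log2 fold changes were 1.81 and 1.72 for Irf7 and 0.28 on both dishes for Irf9 (adjusted p = 0.0013 on TC and 0.0012 on noTC for the latter). Irf2, Irf5 and Irf8 had 1.97, 2.25 and 2.45 times the level in M-TC-LPS cells comparing with GM-TC-LPS cells, and 1.93, 2.32 and 2.54 times on noTC. Some of the small differences rested on single libraries. Irf5 at steady state (log2 0.17 on TC and 0.16 on noTC, adjusted p = 0.011 and 0.017) was lost without the first GM-TC or the second M-TC library on TC and without the second GM-noTC or the second M-noTC library on noTC, with adjusted p up to 0.14, and on TC also in a fit of the 4 libraries alone (adjusted p = 0.070). Irf8 on noTC (log2 0.13, adjusted p = 0.047) was lost without the second GM-noTC or M-noTC library (adjusted p = 0.22 and 0.20). Irf3 upon LPS challenge was lower in M cells by log2 fold changes of -0.25 on TC and -0.21 on noTC (adjusted p = 0.016 and 0.045 from edgeR), and neither passed with DESeq2 (adjusted p = 0.099 and 0.13) or without the second GM-TC-LPS or M-TC-LPS library, the first GM-noTC-LPS or either M-noTC-LPS library (adjusted p up to 0.25). Ifnb1 did not differ past the threshold on TC with LPS (log2 fold change -0.02, standard error 0.20, adjusted p = 0.93 from edgeR) and was 1.66 times higher in M cells on noTC with LPS (0.73, standard error 0.17, adjusted p = 0.00087).

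**Figure D3:**
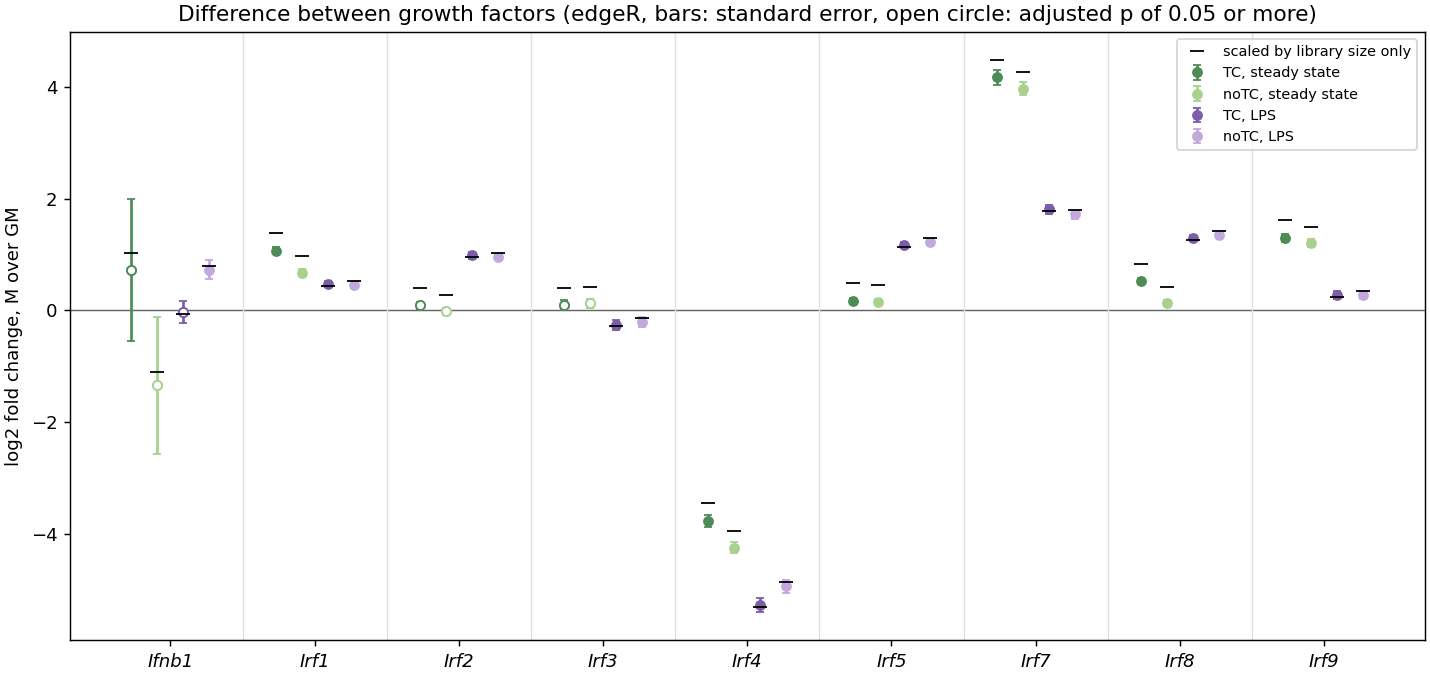
log2 fold changes of M over GM cells with standard errors, for 2 dishes at steady state and with LPS, with open circles where the adjusted p was 0.05 or more and black dashes for scaling by library size only. Irf7 lay at 4.16 and 3.97 at steady state and at 1.81 and 1.72 with LPS, and Irf4 lay between -3.76 and -5.27.

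The LPS response itself differed between M and GM cells for all 8 IRFs on each dish, beside 41.1% of genes on TC and 36.2% on noTC. On each dish 3 had a larger log2 response in M cells (Irf2, Irf5 and Irf8, beside 23.3% and 19.3% of all genes) and 5 a smaller or more negative one (Irf1, Irf3, Irf4, Irf7 and Irf9, beside 17.8% and 16.9%). With scaling by library size the members stayed at 3 higher and 5 lower on each dish. Over all genes the split of higher to lower then changed from 2920 and 2225 to 1307 and 4899 on TC. On noTC it changed from 2418 and 2110 to 1373 and 3753. The largest differences were those of Irf7, -2.36 on TC and -2.25 on noTC (standard errors 0.16 and 0.14, adjusted p = 6.4e-11 and 2.7e-11 from edgeR), the latter -2.85 with the share of the other libraries subtracted. Irf5 differed by 1.002 and 1.06 and Irf8 by 0.77 and 1.21 (adjusted p = 8.1e-08 or lower from edgeR). With scaling by library size Irf5 differed by 0.65 and 0.84 and Irf8 by 0.42 and 0.99. Irf9 differed by -1.02 and -0.93 (adjusted p = 6.1e-08 and 2.1e-07). Irf1 on noTC (-0.22, adjusted p = 0.024) and Irf3 on both dishes (-0.35 and -0.34, adjusted p = 0.026 and 0.034) were lost in 5 of 8 fits that left out 1 library each, with adjusted p up to 0.16 and 0.13, and Irf3 also with DESeq2 (adjusted p = 0.071 and 0.091).

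In the make-up of IRF mRNA per kilobase, Irf5 and Irf8 were the largest parts in resting GM cells, at 36.8 ± 1.29% and 19.4 ± 0.199% (SD, n = 2) of the summed level of the 8 IRFs in GM-TC, and Irf7 held 1.49 ± 0.412%. In M-TC cells Irf7 already held 18.2 ± 1.19% and Irf4 only 0.467 ± 0.0525%, against 9.54 ± 0.831% for Irf4 in GM-TC. Upon LPS challenge Irf1 was the largest part in GM cells, at 42.2 ± 0.992% in GM-TC-LPS and 41.3 ± 0.382% in GM-noTC-LPS. Irf7 was the largest in M cells, at 38.5 ± 0.228% in M-TC-LPS and 34.6 ± 1.35% in M-noTC-LPS. Irf3 shrank from 7.18 ± 0.675% in GM-TC to 1.73 ± 0.0291% with LPS and from 5.07 ± 0.176% in M-TC to 0.722 ± 0.0456%. These shares are within a library and do not depend on scaling between libraries, and no test was run on them.

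**Figure D4:**
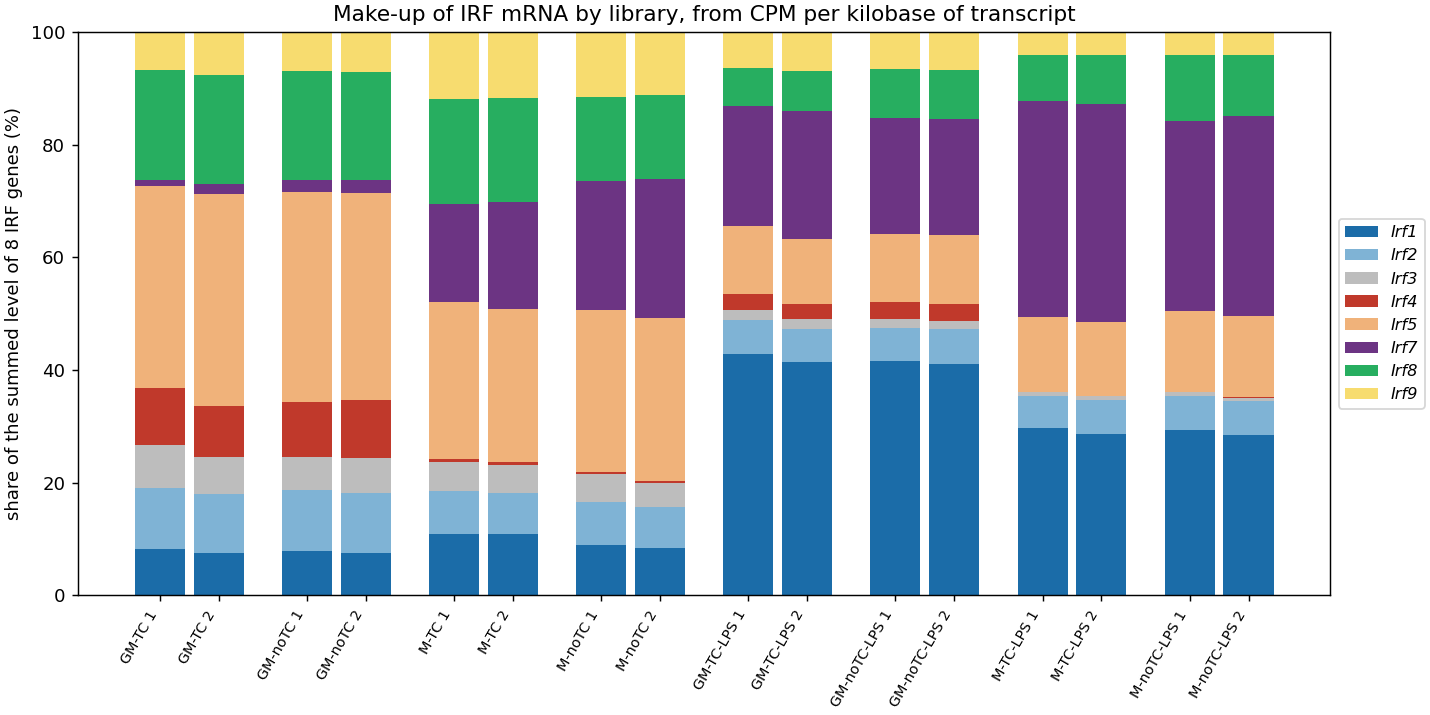
Share of each of the 8 IRF genes in their summed level per kilobase of transcript, for each of the 16 libraries. Irf5 was the largest share in the 8 steady state libraries, Irf1 in the 4 GM-LPS libraries and Irf7 in the 4 M-LPS libraries.

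The third comparison was of noTC with TC dishes, where the change of Ifnb1 in M cells with LPS, given above, was the largest that passed. In GM cells at steady state 1 of the 9 genes passed beside 7.54% of all genes tested, 1 higher and 0 lower (4.69% and 2.85% of all genes), and with LPS 1 beside 2.80%, 1 higher and 0 lower (2.08% and 0.727%). In M cells 3 passed at steady state beside 27.2%, 1 higher and 2 lower (16.1% and 11.1%), and 2 with LPS beside 23.3%, 2 higher and 0 lower (10.4% and 12.9%). With scaling by library size, 2102 genes were higher and 880 lower over all genes in M cells with LPS. Of the members 3 were then higher and 0 lower, with Irf5 added (log2 fold change 0.17, adjusted p = 0.016 from edgeR). The medians of the 9 log2 fold changes were 0.10, 0.02, -0.12 and -0.01 in GM, GM with LPS, M and M with LPS, where all genes had 0.00, 0.00, 0.01 and 0.00.

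In GM cells at steady state the gene that passed was Irf7, with 1.51 times the level on noTC (log2 fold change 0.60, standard error 0.18, adjusted p = 0.039 from edgeR). Its excess in CPM by library size, from 4.49 on TC to 7.00 on noTC, was 0.678% of its mean in the other 10 libraries. The share estimated from 15 other genes was 0.675% (0.390 to 0.907%). Those genes were chosen as low on TC and high in the other libraries, so the match cannot show where the excess came from, which was not tested. With that share subtracted the log2 fold change of Irf7 was -0.02 (adjusted p = 0.97 from edgeR). The call was also lost in a fit of the 4 libraries of the comparison alone (adjusted p = 0.22) and without the first GM-TC, the first GM-noTC or the second GM-noTC library (adjusted p = 0.28, 0.14 and 0.20), while without the second GM-TC library the log2 fold change was 0.99. Irf4 did not pass (0.18, adjusted p = 0.16) except without the first GM-TC library (0.23, adjusted p = 0.0498).

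In M cells at steady state Irf1 and Irf8 were lower and Irf7 higher on noTC. Irf1 had 0.805 of its TC level (log2 fold change -0.31, standard error 0.054, adjusted p = 0.00012 from edgeR), and Irf8 had 0.810 (-0.30, standard error 0.057, adjusted p = 0.00030). Irf7 had 1.32 times its TC level (0.40, standard error 0.083, adjusted p = 0.00085). Its libraries of 68.6 and 78.8 against 90.9 and 103 TMM CPM did not overlap, as for 66.9% of all genes tested. With the share of the other libraries subtracted, the log2 fold changes were -0.37, -0.31 and 0.38 and all 3 passed. The summed macrophage markers were 24700 and 25202 TMM CPM on TC and 19984 and 21171 TMM CPM on noTC in M cells at steady state, and their part in these differences was not tested.

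Upon LPS challenge Irf8 was higher on noTC in both kinds of cell. In M cells it had 1.28 times the TC level (log2 fold change 0.36, standard error 0.055, adjusted p = 4.5e-05 from edgeR) and in GM cells 1.24 times (0.31, standard error 0.057, adjusted p = 0.0028). The latter was lost without the first GM-TC-LPS library (adjusted p = 0.11). Irf7 in M cells with LPS had 0.871 of its TC level (log2 fold change -0.20, standard error 0.076, adjusted p = 0.063 from edgeR). This passed with DESeq2 on all 16 libraries (adjusted p = 0.024), with DESeq2's size factors (adjusted p = 0.040) and in a fit of the 4 libraries alone (adjusted p = 0.016). It did not pass with scaling by library size (-0.11, adjusted p = 0.29 from edgeR), and was -0.27 to -0.13 when each library was left out in turn. Irf4 in M cells with LPS had a log2 fold change of 0.42 (standard error 0.23, adjusted p = 0.20), which became 0.87 (adjusted p = 0.021) without the second M-TC-LPS library.

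The response to LPS differed between dishes in M cells for 3 of the 9 genes, beside 10.6% of genes tested, 2 higher and 1 lower (3.11% and 7.48% of all genes). Irf8 responded more on noTC by 0.66 on the log2 scale (standard error 0.079, adjusted p = 6.6e-06 from edgeR) and Irf7 less, with -0.60 (standard error 0.11, adjusted p = 0.0012). Irf1 differed by 0.25 (adjusted p = 0.023), a call that was lost in 6 of 8 fits without a library (adjusted p up to 0.12). Irf4 passed only without the second M-TC-LPS library (1.17, adjusted p = 0.012). In GM cells 0 passed with edgeR, beside 0.783% of genes (0.192% higher and 0.591% lower), and 1 with DESeq2, Irf7, at a log2 difference of -0.72 (adjusted p = 0.0067), which was -0.71 (adjusted p = 0.11, unadjusted p = 0.0013) with edgeR, -1.10 (adjusted p = 0.019) without the second GM-TC library and -0.09 (adjusted p = 0.95) with the share of the other libraries subtracted. The difference of the dish effect between growth factors upon LPS challenge passed for 0 of the 9 genes with edgeR, beside 10.6% (3.71% higher and 6.87% lower), with an unadjusted p under 0.05 for 1, Ifnb1, and 0 passed with DESeq2.

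**Figure D5:**
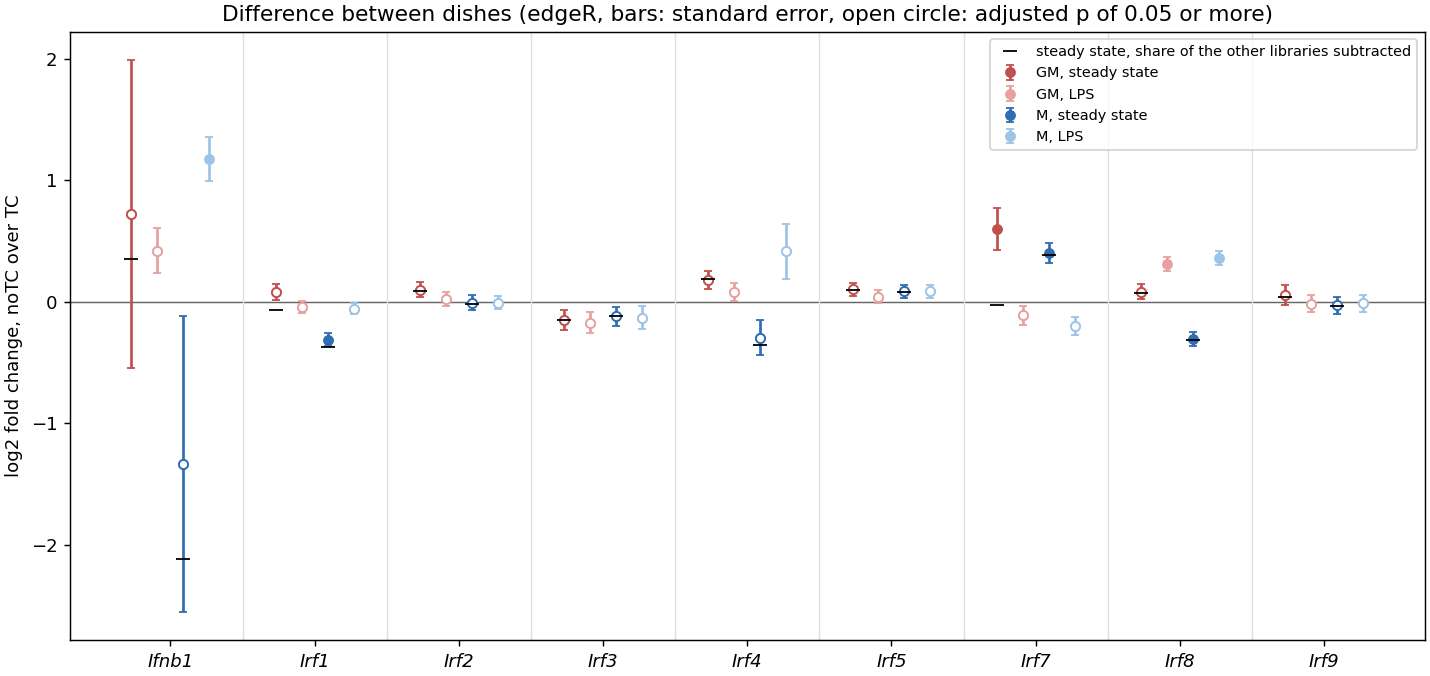
log2 fold changes of noTC over TC with standard errors for GM and M cells at steady state and with LPS, with open circles where the adjusted p was 0.05 or more and black dashes for steady state values after a share of the other libraries was subtracted. The dash of Irf7 in GM cells lies at -0.02, below the main value of 0.60, and those of Irf1, Irf7 and Irf8 in M cells lie at -0.37, 0.38 and -0.31.

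Lists of genes around the members were followed in the same fits, where LPS made 32.8% (TC) and 33.6% (noTC) of all genes higher in GM cells and 37.6% and 36.4% in M cells, and 34.2%, 34.0%, 36.4% and 35.9% lower. Of 21 genes that carry the signal from LPS and nucleic acid sensors to Ifnb1, LPS made 14 higher and 6 lower on both dishes in GM cells (median log2 fold changes 0.89 and 1.03) and 16 higher and 5 lower on both dishes in M cells (1.49 and 1.38). Among the largest changes were those of the RNA sensor genes Ifih1, at 5.40, 5.27, 4.43 and 4.40, and Ddx58, at 3.42, 3.22, 2.74 and 2.58 (adjusted p = 2.5e-20 or lower from edgeR), and of the nucleic acid sensor gene Zbp1, at 3.74, 3.71, 3.26 and 3.03 (adjusted p = 4.2e-19 or lower). With scaling by library size the counts were 12 higher and 8 lower, 12 and 9, 11 and 9, and 11 and 8.

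All 6 genes of the interferon receptor and its kinases and STATs were higher upon LPS challenge in each culture. Stat2 rose by log2 fold changes of 3.09 in both GM cultures and 2.19 (TC) and 1.87 (noTC) in M cells (adjusted p = 1.4e-18 or lower from edgeR). With scaling by library size 5, 5, 4 and 4 were higher and 0, 0, 2 and 1 lower. Resting M cells had more Stat2 than GM cells, by log2 fold changes of 1.32 on TC and 1.35 on noTC (adjusted p = 5.8e-15 and 2.4e-15 from edgeR), the same direction as Irf9. In M cells with LPS 0 of the 6 genes were higher and 4 lower on noTC, beside 10.4% and 12.9% of all genes, among them Jak1 at -0.40, Stat2 at -0.23 and Ifnar1 at -0.19 (adjusted p = 0.021 or lower from edgeR). Scaled by library size, 0 were higher and 2 lower.

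All 26 interferon stimulated genes were higher upon LPS challenge in each culture, with median log2 fold changes of 5.04 and 4.23 in GM cells on TC and noTC and 3.32 and 3.19 in M cells. With the share of the other libraries subtracted, the noTC medians were 4.53 in GM and 3.22 in M cells. Among those with the largest changes were Cxcl10, a chemokine for T cells, at 12.8 in GM-TC and 8.72 in M-TC, and Oasl1, which restrains Irf7 translation, at 9.59 and 6.56 (adjusted p = 1.1e-25 or lower from edgeR). At steady state 26 of 26 were higher in M than in GM cells on TC (median 2.93) and 25 on noTC (2.06). Over all genes 28.9% and 30.7% were higher. Ifit3, which binds foreign RNA with its partners, was at 5.24 and 3.81. The noTC median was 3.01 with the share of the other libraries subtracted. Between dishes at steady state, 11 were higher and 1 lower on noTC in GM cells, beside 4.69% and 2.85% of all genes. These counts became 1 and 2 after subtraction of the share of the other libraries. In M cells 8 were higher and 2 lower, beside 16.1% and 11.1% of all genes, and 5 and 4 after subtraction. Upon LPS challenge 0 of 26 passed between dishes in GM cells, beside 2.80% of all genes. In M cells with LPS 3 were higher and 7 lower on noTC, beside 10.4% and 12.9% of all genes. This became 4 higher and 3 lower with scaling by library size.

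Among 7 partners of the IRFs at the Ifnb1 enhancer, LPS made 5 higher and 1 lower on both dishes in GM cells, and 6 and 0 (TC) or 5 and 1 (noTC) in M cells. The balance turned with scaling by library size, to 3 higher and 4 lower (TC) and 3 and 3 (noTC) in GM cells, and 2 and 4 (TC) and 2 and 5 (noTC) in M cells. The NF-kappaB genes Nfkb1, at 3.35, 3.27, 3.47 and 3.22, and Rela, at 1.79, 1.82, 2.01 and 1.79, led each of them (adjusted p = 4.2e-17 or lower from edgeR). Hmga1, a protein that binds DNA at the enhancer, was higher on noTC in M cells. The log2 fold change was 0.93 at steady state (adjusted p = 6.4e-10 from edgeR) and 0.73 with LPS (adjusted p = 4.2e-08). In M cells with LPS 4 of the 7 were lower on noTC, beside 12.9% of all genes, against 2 lower with scaling by library size. Among the 4 was Nfkb1 at -0.34 (adjusted p = 1.8e-05 from edgeR).

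Among 8 DNA-binding partners and cofactors of the IRFs, 4 were higher and 3 lower upon LPS challenge in each culture. Under library size scaling the counts in GM cells turned to 2 higher and 5 lower on TC and 3 and 5 on noTC, and those in M cells stayed at 4 and 3. Batf2, which joins IRF1 or IRF8 on DNA, rose by 5.44, 4.52, 5.52 and 5.77, while Irf2bp2, a corepressor that binds IRF2, changed by -2.61, -2.46, -4.50 and -4.31 (adjusted p = 2.2e-18 or lower from edgeR). Batf3, a partner of IRF4 and IRF8 in dendritic cells, was lower in resting M than GM cells by -3.60 on TC and -3.92 on noTC (adjusted p = 5.9e-09 and 1.5e-09), the same direction as Irf4. Of 11 feedback genes, LPS made 6 higher and 2 lower on both dishes in GM cells, and 7 and 1 (TC) or 7 and 2 (noTC) in M cells. Scaled by library size, the counts were 6 higher and 4 lower in both GM cultures and 6 and 5 in both M cultures. Socs3 and Socs1, inhibitors of JAK signaling, rose in M-TC cells by 8.50 and 6.81 and in M-noTC cells by 7.85 and 7.02. At rest they were lower in M than GM cells, by -3.17 and -2.43 on TC (adjusted p = 1.8e-10 or lower from edgeR).

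Over the 16 libraries, the genes most like each member were taken from 12513 others by the correlation of log2(TMM CPM + 0.5), a description in which the contrast of LPS with steady state is shared by all genes and libraries. Irf7 was most like Slc16a10, Fnbp1l and the RNA sensor gene Dhx58 (Pearson's r = 0.997 for each). Irf9 was most like 3 interferon stimulated genes, Ifi44 (0.996), Xaf1 (0.994) and Ifit3 (0.992). Irf1 was most like Nfkb2 (0.999), Nt5c3 and Nfkbie (0.998 each). Irf4 was most like Lrp12 (0.997), Chp1 (0.991) and Dok7 (0.990), and Irf8 was most like Stag2 (0.983), Cd47 (0.982) and, as the only member named for another, Irf5 (0.978). Irf2 followed Zfp800 (0.999), Atad1 and Shisa3 (0.998 each), Irf5 followed Lipg (0.992) and C9orf72 (0.991), and Ifnb1 followed Ccng2 (0.991), Ktn1 (0.990) and Rsbn1 (0.989). Irf3 had the loosest match, with Zkscan3 at 0.902, Zbtb40 at 0.883 and Acvr2b at 0.879.

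Ordered by level, the 8 groups formed steps whose neighbours often did not differ past the threshold. For Irf1, GM-TC and GM-noTC did not differ (adjusted p = 0.53 from edgeR), M-noTC and M-TC followed, and then the GM-LPS pair (adjusted p = 0.76) and the M-LPS pair (adjusted p = 0.40). For Irf7, GM-noTC-LPS and GM-TC-LPS (adjusted p = 0.61) and M-noTC-LPS and M-TC-LPS (adjusted p = 0.063) did not pass. The step from GM-TC to GM-noTC passed (adjusted p = 0.039), but not with the share of the other libraries subtracted (adjusted p = 0.97), and the other 4 steps passed. For Irf8, the resting GM pair (adjusted p = 0.47) and M-TC with GM-TC-LPS (adjusted p = 0.17) did not differ, and M-noTC-LPS was the highest group. For Irf3, 0 of the 7 steps between neighbouring groups passed with edgeR.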

How the data were processed

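The authors trimmed reads with fastp 0.18.0, removed ribosomal reads with Bowtie2 2.2.8, aligned with HISAT2 and quantified genes with RSEM, per the methods and the submitters' processing notes, which also name StringTie 1.3.1. The deposited values are expected counts without normalization. Which genome and gene annotation they used is not given in the sources used here. Values were rounded to whole counts, and all 16 libraries were used. The kit did not keep strand.

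Groups came from the sample labels. Genes were filtered with edgeR's filterByExpr by group, scaled with TMM, and tested in a single quasi-likelihood fit of 8 groups (edgeR 4.0.16, R 4.3.3), with a biological coefficient of variation of 4.75%. Calls were made at a Benjamini-Hochberg adjusted p under 0.05 over 12514 genes. Alternatives were DESeq2 1.42.0, its size factors, library size only, no filter, a replicate block, fits of the libraries compared, a subtracted share of the other libraries, and leaving out each library. In that share, the median excess of noTC over TC was taken over genes rare in TC cells, members left out. Replicate libraries differed by 1.91 to 12.5 times the counting noise (chi-square per degree of freedom), so none was the same library sequenced again. Whether a pair came from the same RNA or culture could not be told from this. The fit was tested on simulated data for LPS in M-TC cells with 12514 genes, where 200 genes were changed and 195 of them tested. Called were 88 of those changed 2-fold, 89 of those changed 3-fold and 6 unchanged ones. The changed genes were few and split evenly between higher and lower, so scaling between libraries was not tested.

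Named are all 9 members and, from each list, up to 4 called genes with the largest change. The members, lists and alternatives were chosen with earlier results of these data known. Genes were placed with GENCODE M21 and levels per kilobase used the principal transcript. Some genes are not reported here.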

Additional observations from a re-analysis of the deposited data

Results flagged for a closer look

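Tests of a difference between responses passed for 19 results, all log2 differences from edgeR. The LPS response of M cells less that of GM cells on TC was -0.60 for Irf1, 0.89 for Irf2, -0.35 for Irf3, -1.51 for Irf4, 1.002 for Irf5, -2.36 for Irf7, 0.77 for Irf8 and -1.02 for Irf9. On noTC it was -0.22 for Irf1, 0.97 for Irf2, -0.34 for Irf3, -0.70 for Irf4, 1.06 for Irf5, -2.25 for Irf7, 1.21 for Irf8 and -0.93 for Irf9. The LPS response on noTC less that on TC in M cells was 0.25 for Irf1, -0.60 for Irf7 and 0.66 for Irf8. No single library was tested against its own group, which holds 2 libraries. The GM-TC pair differed most, by 12.5 times the counting noise (chi-square per degree of freedom), against 1.91 to 5.13 in the other pairs.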

How the results depend on the processing

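With a fold above 2 and an unadjusted p under 0.05 in place of the adjusted p, 5 members passed upon LPS challenge in each GM culture. Between dishes 0 passed in GM, M and GM with LPS and 1 in M with LPS, and for M against GM 3 on noTC and 4 on each dish with LPS. The LPS response differed between growth factors for 4 on TC and 3 on noTC, and between dishes in M for 0. Library size only, no filter and a fit of the libraries compared each gave 1 member (Ifnb1) for dish by growth factor with LPS. No filter, the replicate block and DESeq2 each gave 1 (Irf7) for dish by LPS in GM. Subtraction of the share and the fit of the libraries compared gave 0 for noTC against TC in GM. Leaving out each library gave 0 to 1 for noTC against TC in GM, 0 to 1 in GM with LPS, 2 to 3 in M with LPS, 4 to 6 for M against GM on noTC, 0 to 1 for dish by LPS in GM and 2 to 3 in M. Directions turned with library size only for Irf3, Irf4 and Irf5 upon LPS challenge, to -0.44, -0.17 and -0.043 in GM-TC and -0.49, -0.30 and -0.13 in GM-noTC, and for Irf2 in M against GM on noTC, to 0.28. With the share subtracted Irf7 in noTC against TC in GM turned to -0.024. The cause was not tested. Libraries with the same number deviated with correlations of -0.06 to 0.04. With 2 libraries per group this cannot show whether the numbers pair the samples, which the labels do not say. The replicate block moved 2 of 153 values across the threshold, Irf7 between dishes in M with LPS (-0.20, adjusted p = 0.020 from edgeR) and for dish by LPS in GM (-0.71, adjusted p = 0.028). At this depth differences of Ifnb1 at steady state were not detectable, and 2 libraries per group limit the rest.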
